A study of Mus musculus with 8 samples.

Results

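Imprinted genes of growth and adipose expansion were followed in bulk RNA-seq libraries of mouse brown adipose tissue (BAT), the thermogenic fat depot. The 10 genes were H19, Igf2, Igf2r, Dlk1, Meg3, Peg3, Plagl1, Cdkn1c, Grb10 and Mest, taken by symbol from a count table of 31053 Ensembl gene identifiers, and all 10 were found there with at least 1 count. There were 4 libraries labelled WT and 4 labelled Cd36KO, all from C57BL6/J mice labelled as 8 weeks old, with no treatment named for either group. CD36 is a scavenger receptor for lipids and vesicles. The labels give the genotype no more closely than Cd36KO. The study made both a germline knockout and a macrophage deletion through Csf1r-Cre on a floxed allele, and it ascribes its BAT transcriptome to the macrophage-deleted mice, with as many mice per group as there are libraries here and the same age as the labels, although its methods give a later age for those mice. In that model every cell type outside the Cre-expressing lineage would keep Cd36. A single Cd36KO library has a count column without a replicate number and is called Cd36KO unnumbered. Each library was taken as 1 mouse on that basis, and no source says which mice were littermates.

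Imprinted genes are transcribed mainly from the allele of one parent, which is set by DNA methylation laid down in the germ line. Paternally expressed members of this group mostly favour growth, and maternally expressed members mostly restrain it. Several act on the insulin-like growth factor (IGF) pathway, and Dlk1, Peg3 and Mest have long been studied in fat cell formation and expansion. Counts here do not separate the parental alleles.

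Total counts ranged from 2679785 to 4097953 per library, and 13368 to 14698 genes had at least 1 count. Cd36 itself had 2796, 2958, 3505 and 2412 normalized counts (counts divided by the DESeq2 size factor of the library) in WT replicates 1 to 4. It had 1926 in Cd36KO unnumbered and 2109, 2384 and 1930 in Cd36KO replicates 2 to 4. All Cd36KO values were thus below all WT values, with a log2 fold change of -0.48 (SE 0.16) and a DESeq2 adjusted p of 0.0602, and the transcript stayed abundant in every Cd36KO library. In other DESeq2 fits it did pass, at an adjusted p of 0.0494 after TMM scaling, 0.0448 beside a muscle covariate (log2 fold change -0.66) and 0.00656 when WT replicate 4 was left out (log2 fold change -0.56). The labels name the stromal vascular fraction as cell type, but the adipocyte genes Ucp1 (3601 to 11051 counts per library) and Adipoq (2723 to 6136 counts) were abundant. Xist, transcribed from the inactive X chromosome, had 772 to 1588 counts in the 8 libraries, whereas of the Y-linked genes examined Kdm5d, Uty and Eif2s3y had 0 and only WT replicate 1 held any count of Ddx3y (3 counts), although the methods state that all mice were male.

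Muscle transcripts differed widely between libraries. The 35 skeletal muscle markers held 3.70% of all counts in WT replicate 1 (exact binomial 95% interval 3.68 to 3.73), 0.650% in WT replicate 2, 0.0519% in WT replicate 3 and 0.559% in WT replicate 4. They held 0.401% in Cd36KO unnumbered and 0.0200%, 0.0195% and 0.108% in Cd36KO replicates 2 to 4. The highest and the lowest library thus differed 189.9-fold, WT replicate 1 stood apart, and the groups overlapped. Mean shares ± SD (n = 4) were 1.24% ± 1.66 for WT and 0.137% ± 0.181 for Cd36KO, a difference that did not pass an exact two-sided permutation test (p = 0.0857). The fold changes of all 35 markers were negative in Cd36KO, with a median log2 value of -2.98, and DESeq2 called 0 of them, with 17 at an unadjusted p under 0.05 and 0 called by edgeR. Myogenic precursor markers summed to at most 45 counts in a WT library and 3 in a Cd36KO library. The 45 were in WT replicate 1, with 18 from Chrna1 and 10 from Cdh15, against 2 from Pax7 and 1 from Myod1.

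White fat markers varied too. The white fat score, the mean log2 CPM (counts scaled to library size) of the listed markers, was 4.05 in WT replicate 1 but 5.43, 5.73 and 5.81 in WT replicates 2 to 4. It was 4.22 in Cd36KO unnumbered and 3.94, 3.50 and 3.79 in Cd36KO replicates 2 to 4, so WT replicate 1 lay within the Cd36KO range. Apart from that library the score separated the groups, so fits with it as a covariate cannot tell the score from genotype. DESeq2 called 5 of 10 tested white fat markers lower (among them Lep, Hoxc8 and Aldh1a1) and edgeR 3, and 4 markers (Wt1, Hoxc10, Upk3b and Tcf21) were at 0 in every library. Brown fat markers held 0.716% to 0.886% of counts in WT and 1.18% to 1.33% in Cd36KO, with 4 of 16 tested called higher by DESeq2, Ucp1 and Cidea among them, and 0 of 17 called by edgeR. Of these 16 fold changes, 13 were positive and 3 negative, the most negative being that of Adrb3 (-1.59, SE 0.52, DESeq2 adjusted p = 0.0614). Over all genes DESeq2 called 2.95%. Of the other lists, 1 of 16 stromal progenitor markers (Col1a2) and 1 of 9 macrophage markers (Cd163) were called lower by DESeq2 and 0 of either list by edgeR. DESeq2 and edgeR called 0 of 12 endothelial and 0 of 8 general adipocyte markers. At an unadjusted DESeq2 p under 0.05, 2 endothelial markers were higher and 2 adipocyte markers lower (Fabp4 and Pparg), against 7.88% of all genes lower. Of the 8 adipocyte fold changes 7 were negative, with a median log2 value of -0.38. In bulk tissue, fewer cells of a type and less RNA per cell cannot be told apart.

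Of the 10 imprinted growth genes, 7 received a DESeq2 adjusted p, and 1 of these 7, Peg3, was called lower in Cd36KO at an adjusted p under 0.05, against 1.53% of all 9619 genes tested. None was called higher, and 6 of 7 had a negative fold change, against 50.8% of all genes. The median log2 fold change was -0.71 over the 7 genes and -0.0088 over all genes tested. In 3 of the 7 (Peg3, Cdkn1c and Grb10) every Cd36KO library lay below every WT library, against 3.93% of all genes tested (8.76% in either direction). Mest, which got no adjusted p, did the same. An unadjusted p under 0.05 was reached by 5 of 7, all lower in Cd36KO, against 7.88% of all genes. The quasi-likelihood test of edgeR also gave 5 of 7 at an unadjusted p under 0.05, against 16.1% of its 9793 genes in either direction, but called 0 after adjustment, against 0.143%. The genes left without an adjusted p were Dlk1, Igf2 and Mest, all at low counts. The plots of counts by library and of fold changes show this order.

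**Figure D1:**
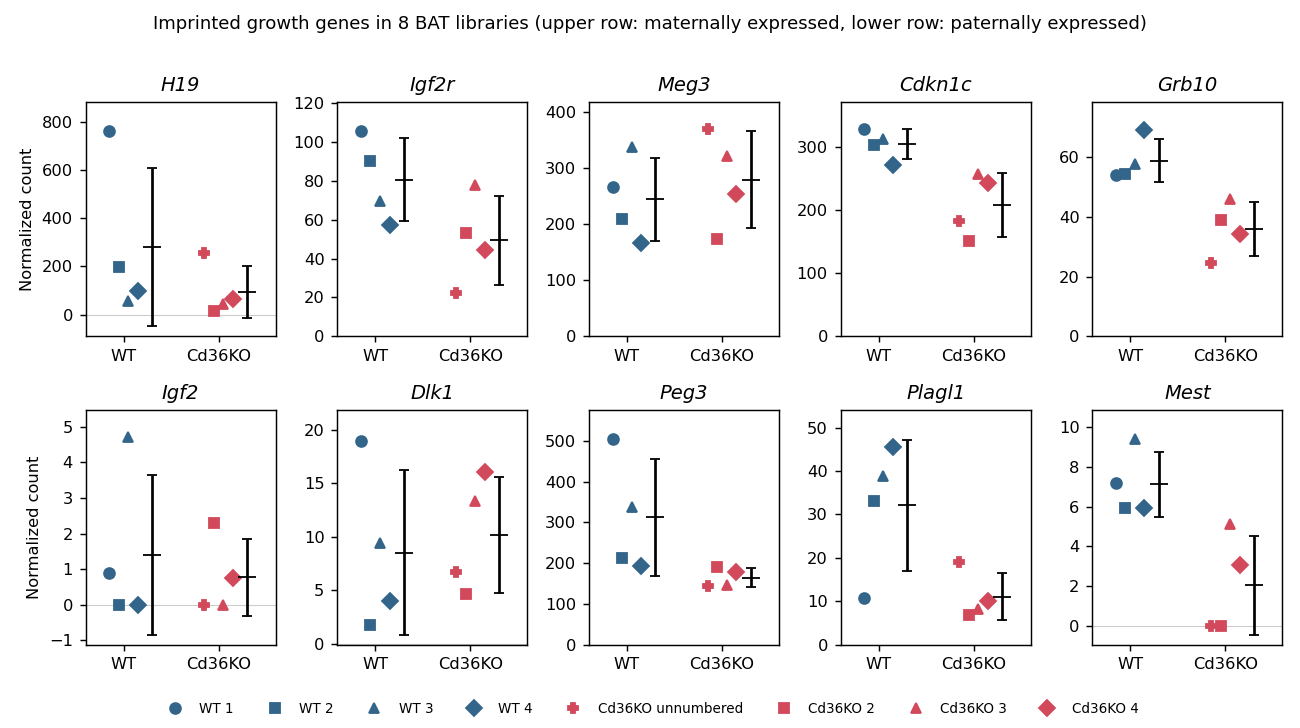
Normalized counts (vertical axes, linear) of the 10 genes in each library, with maternally expressed genes above and paternally expressed genes below. Each symbol is 1 library, blue for WT and red for Cd36KO, and bars give the mean ± SD (n = 4). The groups do not overlap for Cdkn1c, Grb10, Peg3 and Mest, and WT replicate 1 is the highest library for H19 (764.6) and Peg3 (505.5).

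**Figure D2:**
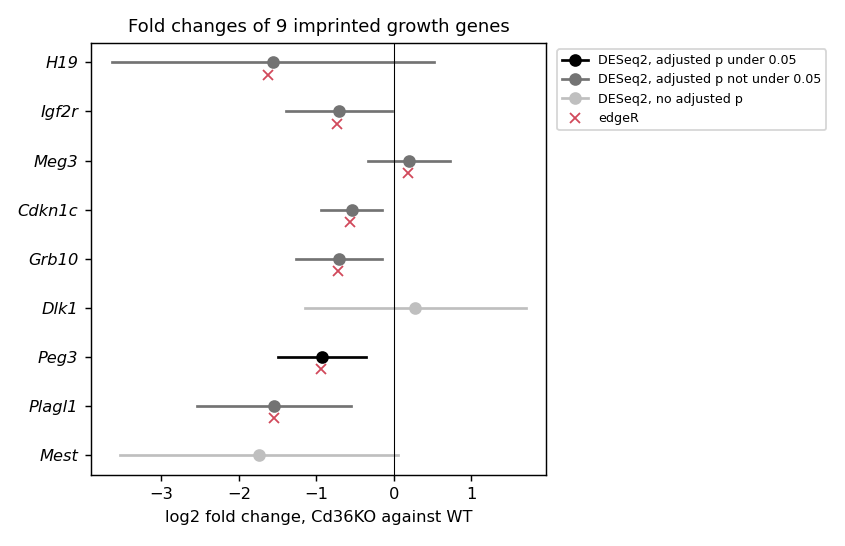
Log2 fold change of Cd36KO against WT for the 9 genes given a fold change, with DESeq2 estimates as circles, their 95% intervals as lines, and edgeR estimates as crosses (none for Dlk1 and Mest, which edgeR did not test). Peg3 (-0.92) is drawn in black as the gene past the threshold, and Meg3 (0.19) and Dlk1 (0.28) lie on the positive side with intervals that include 0.

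H19 is a maternally expressed long non-coding RNA, abundant in fetal tissue and kept in adult skeletal muscle. Its gene (ENSMUSG00000000031, lincRNA) lies on the minus strand of chromosome 7 at 142575529-142578143 (GRCm38), 72622 bases from Igf2, with which it shares an imprinting control region. It is also the host of a microRNA whose mature strands are given here from RefSeq (GRCm38.p6), because that product is part of what is known of H19 in growth and muscle. Capitals mark the seed, bases 2 to 8, which differs between the strands. The 5p strand is at chr7:142577112-142577133 and the 3p strand at chr7:142577078-142577099, both on the minus strand. The mature forms were not analysed here.
mmu-miR-675-5p: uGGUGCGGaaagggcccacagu
mmu-miR-675-3p: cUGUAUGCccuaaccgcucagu

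H19 varied widely between libraries and moved with their muscle counts. Its normalized count was 764.6 in WT replicate 1, 197.1 in replicate 2, 55.3 in replicate 3 and 99.9 in replicate 4. It was 255.1 in Cd36KO unnumbered and 16.1, 43.0 and 64.1 in Cd36KO replicates 2 to 4. The library highest in muscle markers was thus also the highest in H19, the unnumbered library was the highest of the Cd36KO group in both, and the groups overlapped. Means ± SD (n = 4) were 279 ± 329 for WT and 94.6 ± 109 for Cd36KO, giving a log2 fold change of -1.56 (SE 1.06, DESeq2 adjusted p = 0.509), with an exact two-sided permutation p of 0.257. The log2 fold change was -0.32 without WT replicate 1 and -2.76 without Cd36KO unnumbered, and with the muscle score (mean log2 CPM of the 35 markers) as a covariate its sign turned to 0.39 (DESeq2 adjusted p = 0.797). In replicates 2 to 4 of each group alone, the log2 fold change of H19 was -1.50 (DESeq2 adjusted p = 0.0394). With replicate number as a block in those libraries it was -1.44 (DESeq2 adjusted p = 0.983).

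Over the 8 libraries, log2 CPM of H19 correlated with the muscle score at Pearson's r = 0.925 (exact permutation p = 0.00146, adjusted p = 0.0132) and Spearman's rho = 0.905 (exact permutation p = 0.00456, adjusted p = 0.0411). Without WT replicate 1 and Cd36KO replicate 3, the libraries farthest from the median muscle score, r was 0.909. The adjustment was over 9 genes, leaving out Igf2, and of the other 8 none had an adjusted Pearson p below 0.751 or an adjusted Spearman p below 0.584. Each group holds too few libraries for a correlation of its own. The genes most alike H19 over the 8 libraries, a search added after its values were seen, were Myh7 (r = 0.955), Neb (r = 0.949) and Mybpc2 (r = 0.948), which encode proteins of the muscle sarcomere. Among the 50 genes most alike it, out of 5527 others whose mean normalized count reached 50, 28 were muscle markers, of 31 muscle markers in the comparison. These points share library size and scaling.

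**Figure D3:**
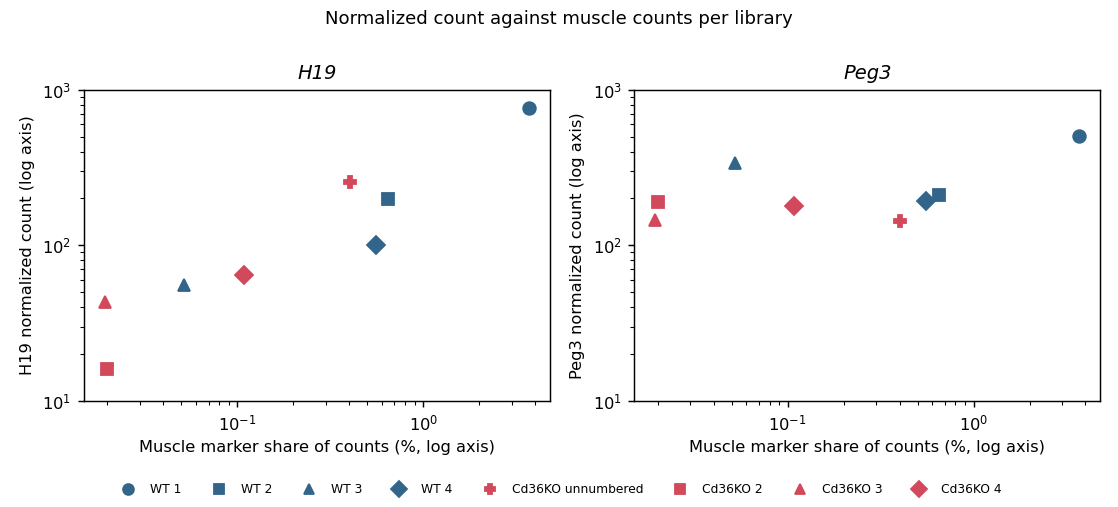
Normalized count of H19 (left) and Peg3 (right) against the share of counts on 35 muscle markers, in percent, with log axes and 1 symbol per library. H19 ranges from 16.1 at a share of 0.0200% to 764.6 at 3.70%, whereas Peg3 is 338.7 in WT replicate 3, which had a muscle share of 0.0519%.

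Cdkn1c encodes p57Kip2, a maternally expressed inhibitor of cyclin-dependent kinases that restrains growth. The gene (ENSMUSG00000037664) lies on the minus strand of chromosome 7 at 143458339-143461050, 791522 bases beyond Igf2. Its normalized count was 329.5, 304.1, 312.9 and 272.0 in WT replicates 1 to 4. In Cd36KO it was 182.7 in the unnumbered library and 150.7, 257.8 and 242.5 in replicates 2 to 4. All Cd36KO libraries were below all WT libraries, and the spread was wider in Cd36KO. The WT mean was 305 ± 24.2 and that of Cd36KO 208 ± 50.3 (± SD, n = 4), giving a log2 fold change of -0.54 (SE 0.20, DESeq2 adjusted p = 0.119), which did not pass the threshold. The exact two-sided permutation p was 0.0286, the smallest that 4 against 4 libraries can give. The log2 fold change stayed between -0.81 and -0.42 under the alternatives, with -0.50 without WT replicate 1 and -0.56 with the muscle score as a covariate. An antisense gene, Gm44732, shares 625 exonic bases with it and had 0 counts.

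Grb10 encodes an adaptor protein that dampens signalling from the insulin and IGF1 receptors, and it is maternally expressed in most tissues outside the brain. The gene (ENSMUSG00000020176) is on the minus strand of chromosome 11 at 11930508-12038683. Normalized counts were 54.2, 54.4, 57.6 and 69.2 in WT replicates 1 to 4. They were 24.5 in Cd36KO unnumbered and 39.1, 46.0 and 34.3 in Cd36KO replicates 2 to 4. Again the highest Cd36KO library was below the lowest WT library. Means ± SD (n = 4) were 58.9 ± 7.11 for WT and 36.0 ± 9.04 for Cd36KO, giving a log2 fold change of -0.71 (SE 0.28, DESeq2 adjusted p = 0.162, exact permutation p = 0.0286). It too did not pass the threshold, and the alternatives gave between -0.96 and -0.57. The value was -0.75 without WT replicate 1.

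Igf2r encodes the receptor that carries IGF2 to the lysosome for degradation, and in mice it is maternally expressed. The gene (ENSMUSG00000023830) spans 12682406-12769664 on the minus strand of chromosome 17. Normalized counts were 105.6, 90.0, 69.4 and 57.4 in WT replicates 1 to 4, and 22.3 in Cd36KO unnumbered and 52.9, 77.7 and 44.2 in Cd36KO replicates 2 to 4. The groups overlapped because Cd36KO replicate 3 exceeded WT replicates 3 and 4. The WT mean was 80.6 ± 21.5 and that of Cd36KO 49.3 ± 22.9 (± SD, n = 4), giving a log2 fold change of -0.71 (SE 0.35, DESeq2 adjusted p = 0.292, exact permutation p = 0.114). It ranged from -1.02 without Cd36KO replicate 3 to -0.47 without Cd36KO unnumbered, and was -0.32 in replicates 2 to 4 of each group, without WT replicate 1 and Cd36KO unnumbered (DESeq2 adjusted p = 0.959). With the white fat score as a covariate the log2 fold change was -1.55 and the DESeq2 adjusted p 0.0253. Airn, the non-coding RNA that silences Igf2r on the paternal allele, overlaps it on the opposite strand without shared exonic bases. Airn had 124 counts in WT and 117 in Cd36KO over 4 libraries each (log2 fold change -0.05, DESeq2 adjusted p = 0.966).

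Meg3 is a maternally expressed long non-coding RNA whose gene (ENSMUSG00000021268) lies on the plus strand of chromosome 12 at 109541001-109571726. Normalized counts were 265.4, 208.9, 336.4 and 166.2 in WT replicates 1 to 4, and 369.9 in Cd36KO unnumbered and 172.6, 321.2 and 253.2 in Cd36KO replicates 2 to 4. High and low libraries were present in both groups. Means ± SD (n = 4) were 244 ± 73.7 for WT and 279 ± 85.7 for Cd36KO, giving a log2 fold change of 0.19 (SE 0.27, DESeq2 adjusted p = 0.803, exact permutation p = 0.6). The 95% interval of the log2 fold change ran from -0.34 to 0.73.

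Peg3, the gene called in this comparison, encodes a large zinc finger protein that is expressed from the paternal allele and is known for effects on fetal growth, maternal behaviour and body fat. The gene (ENSMUSG00000002265) is on the minus strand of chromosome 7 at 6703892-6730431, and its start is methylated on the maternal allele. Plagl1 has the same kind of start: it encodes the zinc finger transcription factor ZAC1, placed at the centre of a network of imprinted genes, and lies on the plus strand of chromosome 10 at 13060504-13131694 (ENSMUSG00000019817). The 300 bases around the RefSeq start of each gene (GRCm38.p6, 250 before and 50 after) are shown because these 2 genes had the smallest adjusted p of the group, and capitals mark CG, the dinucleotide that carries DNA methylation. Methylation was not measured here. The Peg3 window, chr7:6730370-6730669 on the minus strand, holds 13 CG, and the Plagl1 window, chr10:13090582-13090881 on the plus strand, holds 26, against a median of 7 over 32851 promoter windows.
Peg3 promoter: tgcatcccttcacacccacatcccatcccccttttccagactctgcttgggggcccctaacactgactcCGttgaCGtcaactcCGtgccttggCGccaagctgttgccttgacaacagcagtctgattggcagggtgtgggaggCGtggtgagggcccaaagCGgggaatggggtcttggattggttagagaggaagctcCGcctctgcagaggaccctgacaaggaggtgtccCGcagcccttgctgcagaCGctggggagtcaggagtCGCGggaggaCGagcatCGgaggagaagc
Plagl1 promoter: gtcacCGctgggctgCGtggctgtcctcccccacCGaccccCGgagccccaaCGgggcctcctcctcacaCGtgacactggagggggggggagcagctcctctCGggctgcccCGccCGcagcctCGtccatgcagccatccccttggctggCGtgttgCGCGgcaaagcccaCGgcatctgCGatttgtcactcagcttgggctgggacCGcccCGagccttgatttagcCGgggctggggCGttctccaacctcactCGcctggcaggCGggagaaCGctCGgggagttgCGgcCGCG

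Windows were found for 8 of the 10 genes, 15 windows in all, with 1 to 45 CG each. Motifs were searched on both strands as GGGGCCCC, part of the sequence known to be bound by PLAGL1, as CCATNTT, the core bound by YY1, and as the E-box CANNTG. GGGGCCCC was in the Peg3 window and in no other of the 15, and 1.08% of all windows hold it. CCATNTT was in 16.1% and CANNTG in 72.3% of all windows and neither was in the Peg3 window. A match describes these letters only.

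Peg3 had 505.5, 211.5, 338.7 and 191.9 normalized counts in WT replicates 1 to 4. It had 142.6 in Cd36KO unnumbered and 189.9, 145.2 and 179.2 in Cd36KO replicates 2 to 4. All Cd36KO libraries were below all WT libraries, but the margin between WT replicate 4 and Cd36KO replicate 2 was narrow. The WT mean was 312 ± 145 and that of Cd36KO 164 ± 23.9 (± SD, n = 4), so the WT spread was about as large as the difference of means. The log2 fold change was -0.92 (SE 0.29, DESeq2 adjusted p = 0.0478, exact permutation p = 0.0286), a level in Cd36KO of 0.527 times that in WT. The edgeR adjusted p was 0.141, and the alternatives gave adjusted p-values from 0.000681 to 0.937.

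WT replicate 1, the library richest in muscle transcripts, was also the highest in Peg3, and without it the log2 fold change was -0.59 with a DESeq2 adjusted p of 0.184. With the muscle score as a covariate the estimate was -0.81 (DESeq2 adjusted p = 0.295). The correlation of Peg3 with the muscle score did not pass its test, at r = 0.472 over 8 libraries (exact permutation p = 0.251, adjusted p = 0.751, Spearman's rho 0.429, exact permutation p = 0.299, adjusted p = 0.584) and r = -0.366 without WT replicate 1 and Cd36KO replicate 3. The call was lost when WT replicate 1, 2 or 3, Cd36KO unnumbered, or Cd36KO replicate 3 or 4 was left out, with DESeq2 adjusted p-values of 0.0528 to 0.184 and log2 fold changes of -1.07 to -0.59. With the white fat score as a covariate it held, at -1.61 (DESeq2 adjusted p = 0.000681). Among the genes most alike Peg3 over the 8 libraries were Filip1l (r = 0.976) and Kif1b (r = 0.953), neither of them in the muscle list.

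Plagl1, whose start was shown above, had fewer counts behind its values. Its normalized count was 10.8 in WT replicate 1 and 33.1, 38.8 and 45.5 in WT replicates 2 to 4. It was 18.9 in Cd36KO unnumbered and 6.90, 8.18 and 9.92 in Cd36KO replicates 2 to 4. The groups overlapped through WT replicate 1, which lay among the Cd36KO libraries. Means ± SD (n = 4) were 32.1 ± 15.0 for WT and 10.99 ± 5.45 for Cd36KO, giving a log2 fold change of -1.55 (SE 0.51, DESeq2 adjusted p = 0.0648, exact permutation p = 0.0571). The gene thus missed the threshold with all libraries, while without WT replicate 1 the log2 fold change was -1.84 and the DESeq2 adjusted p 0.00413. The same library was the low one of the WT group for the white fat score (4.05 against 5.43 to 5.81). With that score as a covariate the log2 fold change of Plagl1 was 0.26, so its sign turned.

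Dlk1 encodes a membrane protein related to Notch ligands, also known as Pref-1, that marks preadipocytes and holds back their differentiation. The gene (ENSMUSG00000040856), paternally expressed, lies on the plus strand of chromosome 12 at 109452823-109463336, 77664 bases before Meg3. Its counts were 21, 2, 8 and 4 in WT replicates 1 to 4 and 6, 4, 13 and 21 in Cd36KO unnumbered and replicates 2 to 4. Low and high libraries occurred in both groups, and no adjusted p was given. Mean normalized counts ± SD (n = 4) were 8.51 ± 7.68 for WT and 10.2 ± 5.39 for Cd36KO (log2 fold change 0.28, SE 0.73, exact permutation p = 0.543). The sign of this difference turned when WT replicate 2 (-0.07) or Cd36KO replicate 4 (-0.04) was left out, so no direction can be given.

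Mest encodes a protein of the alpha/beta hydrolase family whose transcript is known to rise when fat tissue expands. The gene (ENSMUSG00000051855), paternally expressed, is on the plus strand of chromosome 6 at 30723547-30748465. It had 8, 7, 8 and 6 counts in WT replicates 1 to 4, and 0, 0, 5 and 4 counts in Cd36KO unnumbered and replicates 2 to 4. The total was 29 counts in WT and 9 in Cd36KO, and the groups did not overlap. Mean normalized counts ± SD (n = 4) were 7.13 ± 1.64 for WT and 2.04 ± 2.50 for Cd36KO (log2 fold change -1.74, SE 0.92, exact permutation p = 0.0286), with no adjusted p at this depth. Leaving out 1 library moved the log2 fold change to between -2.59 (without Cd36KO replicate 3) and -1.35 (without Cd36KO unnumbered). Mest shares 912 exonic bases with Copg2 on the opposite strand, and the strand setting of the counting is not stated. Copg2 had 198 counts in WT and 144 in Cd36KO (log2 fold change -0.41, DESeq2 adjusted p = 0.575).

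Igf2, the fetal growth factor expressed from the paternal allele, was at or near 0 in the counts. The gene (ENSMUSG00000048583) is on the minus strand of chromosome 7 at 142650766-142666816. It had 1, 0, 4 and 0 counts in WT replicates 1 to 4 and 0, 2, 0 and 1 counts in Cd36KO unnumbered and replicates 2 to 4. Only WT replicate 3 exceeded 3 counts, so no fold change is given and no difference was detectable in these counts. An annotated gene on the same strand, Gm49394, shares 3596 of the 5723 exonic bases of Igf2 and had 0 counts. Reads that fall on both genes may have been left out of the counting, so low expression and uncounted reads cannot be told apart.

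The IGF axis, listed as 24 ligands, receptors, binding proteins and adaptors, was examined beside the members that act on it. DESeq2 called 2 of its 16 tested genes lower and 0 higher, against 2.95% of all genes in either direction, 15 of 16 fold changes were negative, and the median log2 fold change was -0.49. The exception in sign, named after its value was seen, was Igf2bp2, which encodes an mRNA-binding protein (0.67, SE 0.32, DESeq2 adjusted p = 0.268). Ghr, the growth hormone receptor, which drives IGF1 production, had normalized counts of 334.0, 588.6, 568.1 and 454.0 in WT replicates 1 to 4. It had 206.1 in Cd36KO unnumbered and 242.8, 211.7 and 237.2 in Cd36KO replicates 2 to 4. Ghr fell in Cd36KO with no overlap between groups, by 1.11 on the log2 scale (SE 0.20, DESeq2 adjusted p = 4.1e-05, edgeR adjusted p = 0.0394, exact permutation p = 0.0286). The call was lost with limma (-1.08, adjusted p = 0.0530) and with the white fat score as a covariate (-0.62, DESeq2 adjusted p = 0.178).

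Igfbp4 encodes a binding protein that withholds IGFs from their receptor. Its normalized counts were 82.2 in WT replicate 1 and 275.2, 365.8 and 379.8 in WT replicates 2 to 4. They were 135.9 in Cd36KO unnumbered and 154.2, 104.3 and 90.0 in Cd36KO replicates 2 to 4. As for Plagl1, WT replicate 1 was the lowest of its group and the groups overlapped. Igfbp4 was lower in Cd36KO by DESeq2 (log2 fold change -1.19, SE 0.37, adjusted p = 0.0445) but not by edgeR (adjusted p = 0.148), and the exact permutation p was 0.143. Leaving out any library other than WT replicate 1 or Cd36KO replicate 2 ended the DESeq2 call, with adjusted p-values of 0.0823 to 0.214. The sign turned to 0.69 with the white fat score as a covariate (DESeq2 adjusted p = 0.216). The summed IGF axis held 0.0705% to 0.0966% of counts in WT libraries and 0.0388% to 0.0602% in Cd36KO libraries.

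Other imprinted genes showed no common direction. Of 52 listed, 44 had counts and 25 were tested, with 12 positive and 13 negative fold changes and a median log2 value of -0.05. DESeq2 called 1 of 25, against 2.95% of all genes. An unadjusted p under 0.05 was reached by 6, of which 4 were lower, against 7.88% of all genes lower. The called gene, Nnat, encodes neuronatin, a small membrane protein expressed from the paternal allele. Nnat (chromosome 2, 157560078-157562522, plus strand) had 377.3 normalized counts in WT replicate 1 and 2220, 3105 and 2144 in WT replicates 2 to 4. It had 369.9 in Cd36KO unnumbered and 245.1, 403.0 and 289.1 in Cd36KO replicates 2 to 4. WT replicate 1 again lay within the Cd36KO range, as it did for Plagl1 and the white fat score. Nnat fell by 2.59 on the log2 scale (SE 0.59, DESeq2 adjusted p = 0.00228, edgeR adjusted p = 0.0491, exact permutation p = 0.0571), and by 2.93 without WT replicate 1 (DESeq2 adjusted p = 8.08e-43). The call was lost with limma (-2.26, adjusted p = 0.1105) and with the white fat score as a covariate (-0.29, DESeq2 adjusted p = 0.833). Nnat lies within the span of Blcap on the opposite strand, and Blcap had a log2 fold change of -0.53 (DESeq2 adjusted p = 0.138).

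**Figure D4:**
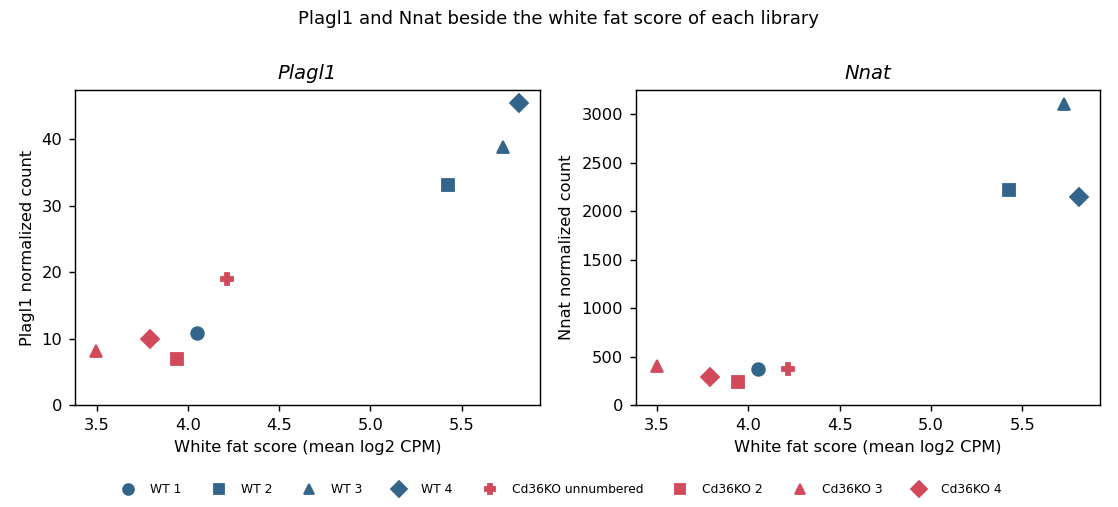
Normalized counts of Plagl1 (left) and Nnat (right) against the white fat score, the mean log2 CPM of the white fat markers, with 1 symbol per library. WT replicates 2 to 4 form a group at scores of 5.43 to 5.81 with high counts of both genes, and WT replicate 1 (score 4.05; Plagl1 10.8; Nnat 377.3) lies with the Cd36KO libraries.

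The plot of Plagl1 and Nnat beside the white fat score splits the 8 libraries into separate clusters, so no pooled correlation is given. Whether white fat in the dissected tissue had a part in these values was not tested. The covariate fits cannot decide it, because only WT replicate 1 keeps the score from separating the groups. The score also averages markers that were called lower in this same comparison.

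Pathways around Dlk1 and Cdkn1c gave no calls in the DESeq2 fit used for the members, or with edgeR. Over all genes the shares called were 2.95% and 0.143%, so 0 calls in lists of 15 or 16 genes say little. DESeq2 called 0 of 15 tested genes of the Notch pathway (0 called by edgeR), with a median log2 fold change of -0.04. At an unadjusted p under 0.05, 2 were lower, against 7.88% of all genes. In this list the highest mean counts were those of the protease Adam17 (0.16, SE 0.23, DESeq2 adjusted p = 0.807) and the gamma-secretase subunit Psen2 (-0.55, SE 0.26, DESeq2 adjusted p = 0.254). Of 16 tested CDK inhibitors and cell cycle genes DESeq2 called 0 (2 lower at an unadjusted p under 0.05, 0 called by edgeR), with a median log2 fold change of -0.12. The summed list held 0.095% to 0.137% of counts in WT libraries and 0.078% to 0.091% in Cd36KO libraries. Here the highest mean counts were those of Ccnd2, cyclin D2, which is also in the white fat list (-0.94, SE 0.31, DESeq2 adjusted p = 0.0611), and Cdkn1a, the inhibitor p21 (0.29, SE 0.28, DESeq2 adjusted p = 0.690). The alternatives gave adjusted p-values from 1.1e-12 to 0.332 for Ccnd2 and from 0.0405 to 0.946 for Cdkn1a. Ccnd2 was lowest of the WT group in WT replicate 1 (752 normalized counts).

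Patterns over the 8 libraries were also compared for other members with high mean counts, as descriptions over points that share library size. The genes most alike Meg3 were Gbf1 (r = 0.981), Usp3 (r = 0.970) and Gm10138 (r = 0.932). Those most alike Cdkn1c were Tln2 (r = 0.935), Cldn15 (r = 0.931) and Clip1 (r = 0.925). None of these 6 genes was in the muscle list, and 0 of the 50 genes most alike Meg3, Cdkn1c or Peg3 were muscle markers, against 28 for H19.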

How the data were processed

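Libraries of 4 WT and 4 Cd36KO BAT samples were prepared from total RNA with a digital mRNA-seq service and sequenced. In the study's methods, single-end reads went through bbduk for trimming, STAR for alignment to mm10 and HTSeq-count for counting per gene. The submitters' processing notes list Trimmomatic, HISAT2 and DESeq2, and the study's list of software also names Trimmomatic and HISAT2. The deposited table holds raw counts, not normalized. A second deposited table holds log2 values, which equal log2 of the size-factor-scaled count plus 1, and this was checked against the counts and used only for limma. Whether strand or molecular identifiers were used is not given in the sources used here.

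Symbols came from GENCODE release M21 (GRCm38; 31011 of 31053 identifiers matched) and sequences from RefSeq. The 17367 genes with counts were fitted with DESeq2 1.42.0 in R 4.3.3 (genotype only, Benjamini-Hochberg threshold 0.05), the tool named by the study. Alternatives were edgeR 4.0.16, TMM factors, genes with at least 10 counts in 4 libraries only, no independent filtering, limma 3.58.1, the replicate block, muscle or white fat scores as covariates, and each library left out. Single genes had an exact two-sided permutation test over 70 arrangements (SciPy 1.17.1), and correlations one over 40320 pairings. Scores are means of log2 CPM (prior count 2). No fold change was given for Igf2, which exceeded the floor of 3 counts in 1 library. Depth was 2679785 to 4097953 counts per library, and the binomial interval of a muscle share covers counting error only, whereas intervals of fold changes rest on DESeq2 standard errors. On simulated counts with 200 genes changed 3-fold, DESeq2 recovered 83.5% of them among 13902 genes, with 7.73% false calls, and edgeR 86.5% among 9928 genes, with 3.89% false calls. The simulation gave every gene the same dispersion, had no outlying library and changed only genes above a count floor. These rates therefore check the code and are not error rates for the data here.

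Members, lists and tests were chosen with earlier results of these data known. Named were the members, Cd36, in each of the lists of other imprinted genes, IGF axis, Notch and cell cycle at most 4 called genes per direction or else the 2 with the highest mean, and the 3 genes most alike each of the 3 members with the highest mean count. Names from marker lists and all other names were chosen after seeing values. A gene that this rule names is not reported here.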

Additional observations from a re-analysis of the deposited data

Results flagged for a closer look

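The muscle marker share of WT replicate 1, 3.70% of counts, was far from the other WT libraries, which had 0.0519% to 0.650%. It was the 1 value set apart among 28 groups of 4 libraries examined by Dixon's test, where chance would give about 1.4. H19 (764.6 normalized counts) and Peg3 (505.5) were also highest in that library.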

How the results depend on the processing

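Low counts limit Igf2, Mest and Dlk1, and WT replicate 1 limits H19, Peg3 and Plagl1. Whether reads shared with overlapping genes were lost for Igf2 and Mest was not tested. Against 1 gene of the group called with DESeq2 (Peg3), edgeR, no independent filtering, limma and the muscle score as a covariate each called 0. The filter of 10 counts called 2 (Peg3 and Plagl1), the white fat score 2 (Igf2r and Peg3), and the 6 libraries left without WT replicate 1 and Cd36KO unnumbered, fitted unpaired, 2 (H19 and Plagl1). Leaving out 1 library at a time called 0 to 1 of the group. Over all genes, 284 calls of 9619 tested (137 higher) became 14 of 9793 (4 higher) with edgeR, 171 of 17361 (73 higher) without independent filtering, 8 of 17367 (4 higher) with limma, 291 of 9760 with the filter of 10 counts, 184 of 9959 (63 higher) with the muscle score and 600 of 7603 (478 higher) with the white fat score. They ranged from 69 to 507 (20 to 328 higher) with 1 library left out, lowest in all without WT replicate 2 (of 10174 tested) and highest without WT replicate 4 (of 6219).

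Signs turned with the muscle score for H19 (0.39), and with the white fat score for Dlk1 (-1.10), Plagl1 (0.26) and Igfbp4 (0.69). Dlk1 also turned without WT replicate 2 (-0.07) or Cd36KO replicate 4 (-0.04). The cause was not tested. Meg3, Cdkn1c, Grb10, Igf2r, Peg3 and Mest kept their sign under every alternative run for them. The log2 fold change of Dlk1 ranged from -0.07 to 1.08 with 1 library left out. The difference of mean muscle share (Cd36KO minus WT, -1.10 percentage points) ranged from -1.50 to -0.28 with 1 library left out, and was -0.28 without WT replicate 1 and -1.50 without WT replicate 3 (exact permutation p = 0.0286).

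Replicate numbers 2, 3 and 4 are shared by both groups, and same-numbered libraries deviated together by -0.06, 0.23 and 0.10 (correlation over 9793 genes). Differently numbered libraries were not set beside these values, so whether the numbers pair the libraries was not settled. The replicate block on these 3 pairs called 219 of 12086 genes (32 higher) and 1 of the group (Plagl1, log2 fold change -2.23), with Peg3 at -0.48. The same 6 libraries unpaired called 262 of 11444 (48 higher).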
